A study of Mus musculus with 18 samples.

Results

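The 9 genes described here encode transcription factors of the RUNX, GATA and forkhead (FOX) families: Runx1, Runx2 and Runx3, Gata2, and Foxa1, Foxp1, Foxo1, Foxo3 and Foxc1. They were chosen by name as 3 RUNX genes, 1 GATA gene and 5 FOX genes among the 54838 genes of the count table. Their RNA was measured by RNA-sequencing in 18 libraries of 6 conditions with 3 replicates each. Neural stem cells were taken from the ventricular zone of single C57BL/6J wild type mouse embryos at E14 and grown with EGF as proliferating neurospheres (NSP), the undifferentiated condition. The other cells were differentiated towards astrocytes in medium with 10% fetal bovine serum for 24 h or 72 h, each without or with TNF at 50 ng/ml, or for 1 week without TNF. All conditions came from wild type cells, no 1-week culture received TNF, and all differentiated cells were in serum, so that the change of medium cannot be told apart from differentiation.

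RUNX proteins bind DNA as a complex with the non-DNA-binding subunit encoded by Cbfb. RUNX1 is best known from blood formation, RUNX2 from bone and RUNX3 from sensory neurons and T cells. GATA2 acts in blood stem cells, in the endothelium and in some neurons of the brainstem and spinal cord. FOX proteins share the forkhead DNA-binding domain. FOXO proteins are excluded from the nucleus after phosphorylation by AKT, so that the level of their RNA is only 1 part of their control, FOXP1 is a repressor active in neural development, FOXA1 opens closed chromatin in endoderm, and FOXC1 acts in mesenchyme, vessels and meninges.

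The genes had different depths behind their values. Total counts per library ranged from 12509693 to 22549627. Of the 9 genes, 8 passed the filter on low counts and were tested among 20067 genes, and Runx3 did not. CPM denotes counts scaled to library size with TMM factors, and the floor of 3 counts corresponded to 0.133 to 0.244 CPM, depending on the library. Foxo3, Foxp1, Foxo1, Foxc1 and Runx2 were measured well above this floor in every library, while Runx1, Gata2 and Foxa1 were within an order of magnitude of it in most libraries. In each comparison a gene was called higher or lower when the adjusted p-value of edgeR's quasi-likelihood test, corrected over all 20067 genes, was under 0.05.

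The libraries behaved as labelled in the genes that respond to TNF. The summed level of 8 NF-kB target genes was 47.2 to 65.7 CPM in the untreated libraries and 255 to 334 CPM with TNF, and all 6 of those that passed the filter were called higher with TNF at both times. The astrocyte markers summed to between 2683 and 8145 CPM, the lowest sums being those at 1 week. Blood and microglia markers were near 0, at 0.66 to 1.56 CPM summed over 8 genes in any library, with C1qa at 0 in all of them. In 3 groups the first replicate stood apart from the other 2. The chi-square of the counts for each degree of freedom was 52.8 and 46.1 for the first NSP replicate against the others and 4.08 between those, 49.7 and 61.8 against 9.06 for 24 h with TNF, and 54.8 and 62.7 against 12.5 for 72 h with TNF. At 1 week the second replicate was further from the others too, at smaller values (21.4 and 24.6 against 5.62). The first replicate of 24 h with TNF also had 25.4 CPM of summed ependymal markers against 11.3 and 11.9 CPM in the other 2, and 1487 CPM of summed stem cell markers against 2977 and 3302 CPM. For the 9 genes, calls that change without 1 of these 3 first replicates are given with the values without it. For list or marker genes named in the text this holds for the printed calls that are lost. Calls that such genes gained without 1 of them are not all given. The study's methods describe its data in general, unless stated otherwise, as coming from independent biological experiments, and the labels of these libraries do not say whether their replicates were separate cultures. The p-values measure the spread between these samples. In bulk RNA, more cells of a type cannot be told apart from more RNA per cell.

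Of the 9 genes, 3 moved with TNF or stood beside the threshold (Runx1, Gata2 and Foxc1), and their upstream sequences are shown because the TNF comparisons turn on these genes. Each run is the 250 bases before a RefSeq start site on GRCm38.p6, 5′ to 3′ on the strand of the gene, and capitals mark a RUNX or NF-kB motif. The RUNX motifs searched were TGTGGT and TGCGGT, the GATA motifs AGATAA and TGATAA, and the forkhead motifs TGTTTAC and TGTTTAT, each on both strands, together with the NF-kB motif.
Runx1, distal start (minus strand, chr16:92826075-92826324): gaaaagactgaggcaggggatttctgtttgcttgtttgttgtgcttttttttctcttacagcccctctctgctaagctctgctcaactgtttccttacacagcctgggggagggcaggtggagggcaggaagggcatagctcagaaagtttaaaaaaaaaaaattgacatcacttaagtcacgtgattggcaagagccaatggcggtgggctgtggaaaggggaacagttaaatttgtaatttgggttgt
Runx1, proximal start (minus strand, chr16:92697330-92697579): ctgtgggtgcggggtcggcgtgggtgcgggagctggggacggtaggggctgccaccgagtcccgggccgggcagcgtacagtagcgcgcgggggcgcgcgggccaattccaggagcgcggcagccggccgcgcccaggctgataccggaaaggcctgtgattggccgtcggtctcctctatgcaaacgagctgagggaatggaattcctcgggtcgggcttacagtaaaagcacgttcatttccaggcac
Gata2, upstream start (plus strand, chr6:88193641-88193890): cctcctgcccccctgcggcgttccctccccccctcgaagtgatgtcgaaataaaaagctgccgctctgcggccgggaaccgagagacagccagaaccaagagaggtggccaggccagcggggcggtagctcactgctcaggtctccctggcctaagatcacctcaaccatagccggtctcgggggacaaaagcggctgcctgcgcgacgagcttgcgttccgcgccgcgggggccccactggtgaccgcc
Gata2, downstream start (plus strand, chr6:88198414-88198663): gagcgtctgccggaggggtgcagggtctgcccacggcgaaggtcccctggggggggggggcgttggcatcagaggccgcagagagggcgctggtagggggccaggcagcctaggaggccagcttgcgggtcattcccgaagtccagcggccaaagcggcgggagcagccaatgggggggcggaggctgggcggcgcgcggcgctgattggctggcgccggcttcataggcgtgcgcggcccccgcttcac
Foxc1 (plus strand, chr13:31806396-31806645): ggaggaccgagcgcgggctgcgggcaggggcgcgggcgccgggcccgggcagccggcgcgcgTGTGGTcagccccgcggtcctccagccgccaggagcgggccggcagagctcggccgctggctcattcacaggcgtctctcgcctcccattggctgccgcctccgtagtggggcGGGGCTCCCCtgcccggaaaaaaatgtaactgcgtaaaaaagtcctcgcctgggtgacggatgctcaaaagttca
The Foxc1 promoter held TGTGGT at bases -188 to -183 and the NF-kB motif GGGGCTCCCC at bases -75 to -66, counted back from the start site. None of the 7 motifs lay in the 4 Runx1 and Gata2 windows shown. Among 32851 promoters of the same length, 14.0% held TGTGGT and 3.9% the NF-kB motif. All 9 genes were matched, with 14 promoters, and outside Foxc1 the matches were TGTGGT in Runx2 and in a Runx3 promoter, TGTTTAC in Foxa1, and TGTTTAT in 2 Foxp1 promoters, 1 of which also held TGCGGT. These letters occurred in 14.0% (TGTGGT), 3.17% (TGTTTAC), 4.16% (TGTTTAT) and 5.1% (TGCGGT) of all promoters. A match describes the letters only, and counts per gene do not tell the start sites of a gene apart.

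The first question was how the 9 genes changed as NSPs were turned into astrocytes. Compared with NSPs, 6 of the 8 genes tested were called higher and 0 lower at 24 h, where 52.7% of all genes were called in either direction and 27.2% higher and 25.5% lower. At 72 h 5 were called higher and 0 lower, against 55.3% of all genes called and 28.1% higher and 27.2% lower. After 1 week 5 were called higher and 1 lower, against 58.6% of all genes called, 29.6% higher and 29.1% lower. The median log2 fold change of the 8 genes was 1.25, 1.36 and 1.21 at these times, beside 0.06, 0.05 and 0.06 for all genes tested. Runx2, Foxp1, Foxo1 and Foxo3 were called higher in all 3 comparisons and also in both TNF conditions, as was Foxa1 in all but the 24 h TNF condition. Foxa1 passed the filter through differentiated libraries alone, so that its calls, though included in the counts against NSPs, are given no weight. With TNF, 7 genes were called higher than in NSPs and 0 lower at 24 h (54.5% of all genes called, 28.2% higher and 26.3% lower) and at 72 h (61.9% called, 31.7% higher and 30.1% lower). All these comparisons share the 3 NSP libraries. Without the first NSP replicate 6 genes were called in each of these 5 comparisons, where 10219 to 12205 of 20620 genes were called. Foxo1 at 24 h with TNF was not called against NSPs without the first TNF replicate (log2 1.00, edgeR, adjusted p = 0.0529, against 1.23 and 0.00986 with it). Gata2 at 24 h with TNF (log2 1.22 ± 0.41, edgeR, adjusted p = 0.0176) was not called against NSPs without the first NSP replicate (log2 0.97, adjusted p = 0.0703).

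**Figure D1:**
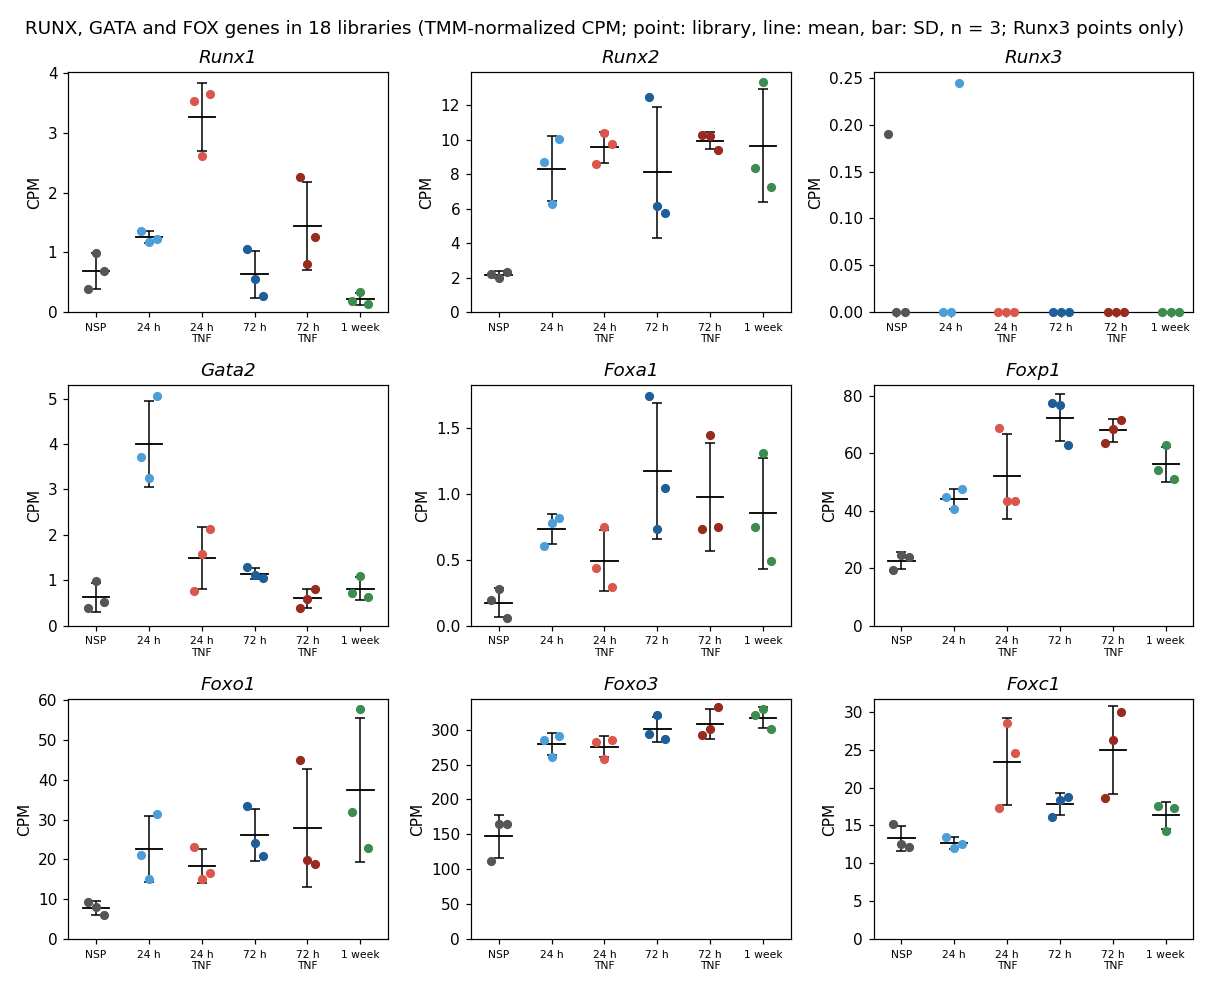
Level of each gene in each library (CPM after TMM normalization, linear axes starting at 0) by condition. Points are libraries, lines means and bars SD (n = 3), with points only for Runx3. Runx2, Foxp1, Foxo1 and Foxo3 are lowest in NSPs, Gata2 peaks at 24 h without TNF, Runx1 at 24 h with TNF, and Runx3 is above 0 in 2 libraries only.

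**Figure D2:**
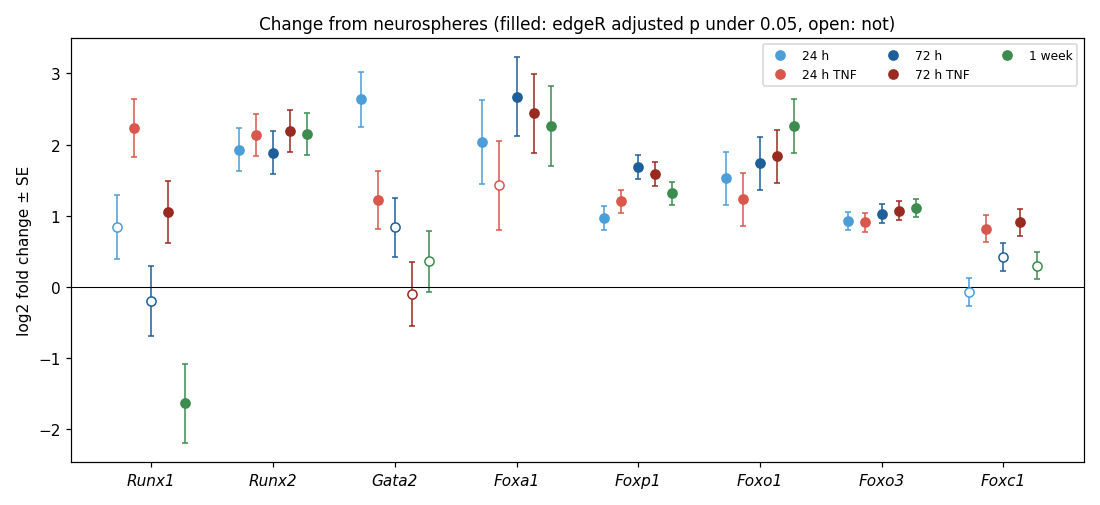
Log2 fold change from NSPs (vertical axis, ± SE) of the 8 genes tested in the 5 differentiated conditions, filled where edgeR's adjusted p was under 0.05. Runx2, Foxp1, Foxo1 and Foxo3 are filled in all 5 conditions, and the only filled point under 0 is Runx1 at 1 week.

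Among the RUNX genes, Runx2 (ENSMUSG00000039153, chr17:44495987-44814797, minus strand) showed the clearest change. Its level was 2.22, 1.98 and 2.33 CPM in NSPs, 8.69, 6.26 and 10.0 CPM at 24 h, 12.5, 6.14 and 5.72 CPM at 72 h, and 8.35, 13.4 and 7.25 CPM at 1 week. Every differentiated library lay above every NSP library, and the 3 differentiated groups overlapped with each other. The log2 fold change from NSPs was 1.93 ± 0.30 (SE) at 24 h (edgeR, adjusted p = 3.82e-05), 1.88 ± 0.30 at 72 h (adjusted p = 3.23e-05) and 2.15 ± 0.30 at 1 week (adjusted p = 5.94e-06). With TNF the level was 8.57, 10.4 and 9.73 CPM at 24 h and 10.3, 10.2 and 9.38 CPM at 72 h. The TNF groups overlapped with the untreated ones, and the log2 difference was 0.20 at 24 h (interval of 2 SE from -0.34 to 0.75) and 0.31 at 72 h (-0.24 to 0.85), neither of which passed the test. The gene overlaps antisense and opposite-strand genes, Runx2os1 among them with 519 shared exon bases, but these had few counts (1 to 5 for Runx2os1 and 0 to 34 for Runx2os2), and Supt3 on the opposite strand (57 to 142 counts) shared no exon bases with it.

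Runx1 (ENSMUSG00000022952, chr16:92601466-92826149, minus strand) was low throughout and was called lower than in NSPs at 1 week. Its level was 0.38, 0.99 and 0.68 CPM in NSPs, 1.36, 1.17 and 1.22 CPM at 24 h, 1.06, 0.55 and 0.28 CPM at 72 h and 0.18, 0.33 and 0.14 CPM at 1 week. The 3 libraries at 1 week were below all NSP libraries and rested on 2 to 6 reads each, close to the floor of 3 counts. The log2 fold change from NSPs was 0.84 ± 0.45 at 24 h (edgeR, adjusted p = 0.119), -0.20 ± 0.49 at 72 h (adjusted p = 0.751) and -1.64 ± 0.56 at 1 week (adjusted p = 0.0176). The call at 1 week was lost without NSP replicate 2 (adjusted p = 0.0958), 1-week replicate 1 (0.0656) or 1-week replicate 3 (0.054). Between neighbouring untreated times Runx1 was not called, with log2 differences of -1.04 ± 0.46 from 24 h to 72 h (adjusted p = 0.113) and -1.44 ± 0.58 from 72 h to 1 week (adjusted p = 0.166), of which the first was called without 72 h replicate 1 (log2 -1.59, adjusted p = 0.0286). Runx3 (ENSMUSG00000070691, chr4:135120652-135177990, plus strand) had 3 counts in 1 NSP library and 3 counts in 1 library at 24 h, and 0 counts in the other 16 libraries, so that any level was under the floor of 0.133 to 0.227 CPM there.

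Genes that work with RUNX proteins are given from a list of 12 partners and cofactors, of which 11 passed the filter. Compared with NSPs 6 rose and 4 fell at 24 h, 2 rose and 4 fell at 72 h, and 3 rose and 4 fell at 1 week, with list medians of 0.53, -0.00 and -0.03 on the log2 scale beside the medians of all genes given above. The 10, 6 and 7 of 11 called stand beside 52.7%, 55.3% and 58.6% of all genes, a share to which those at 72 h and 1 week are close. Cbfb, the gene of the shared subunit, was among those that fell. Its mean level was 251 ± 74.6 CPM (SD, n = 3) in NSPs, 162 ± 21.2 CPM at 24 h, 74.6 CPM (60.6 to 86.3) at 72 h and 54.6 ± 10.4 CPM at 1 week. The log2 fold change from NSPs was -0.63 at 24 h (edgeR, adjusted p = 0.0303; -0.36 and 0.203 without NSP replicate 1), -1.75 at 72 h (adjusted p = 6.33e-06) and -2.20 at 1 week (adjusted p = 3.99e-07). The corepressor genes Tle1, Tle2 and Tle4 fell at all 3 times, of which Tle2 fell by 4.26 at 24 h and fell by 5.54 at 72 h on the log2 scale, while Tle3 and the coactivator gene Wwtr1 rose at all 3 times. Cbfb RNA fell in the same cultures in which Runx2 RNA rose. Of 8 genes of bone formation that RUNX2 is known to activate, 3 passed the filter. Alpl, which encodes alkaline phosphatase, had 36.2 ± 11.2 CPM in NSPs and fell to a level of 1.14 ± 0.36 CPM at 72 h, and Spp1, encoding osteopontin, from 2.84 ± 1.39 CPM to 0.40 ± 0.14 CPM at 24 h and to 1 read in each library at 72 h. Col10a1 rose, by 1.74 at 24 h and 1.70 at 1 week on the log2 scale (edgeR, adjusted p = 0.000113 and 8.8e-05). Ibsp, Bglap, Bglap2, Mmp13 and Sp7 did not pass the filter.

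Gata2 (ENSMUSG00000015053, chr6:88193891-88207032, plus strand) had a peak at 24 h. Its level was 0.38, 0.99 and 0.51 CPM in NSPs, 3.70, 3.24 and 5.05 CPM at 24 h, 1.29, 1.10 and 1.05 CPM at 72 h, and 0.71, 1.10 and 0.63 CPM at 1 week. The 3 libraries at 24 h were above every other library of the series, on 49 to 62 reads each. Gata2 was 6.20-fold higher at 24 h than in NSPs (log2 2.63 ± 0.38, edgeR, adjusted p = 1.94e-05) and was lower again at 72 h than at 24 h (log2 -1.80 ± 0.36, adjusted p = 0.00118). In the comparison of 72 h with 24 h, 1 gene of the 8 was called higher (Foxp1) and 1 lower (Gata2), against 24.8% of all genes called, 12.2% higher and 12.6% lower. At 72 h and 1 week Gata2 did not differ from NSPs by the test, with log2 differences of 0.84 (interval of 2 SE from -0.00 to 1.68) and 0.36 (-0.50 to 1.22). The 72 h libraries nevertheless all lay above the NSP libraries, and that difference was called without NSP replicate 2 (log2 1.32, edgeR, adjusted p = 0.0271). None of the other GATA genes of the list (Gata1, Gata3, Gata4, Gata5 and Gata6) passed the filter. Of the 6 GATA cofactor genes tested, 2 fell at 24 h and 0 rose, where 25.5% of all genes were called lower and 27.2% higher. Tal1, whose product forms a complex with GATA factors and LMO2 in blood cells, fell from NSPs by 1.66 at 24 h, 2.33 at 72 h and 2.29 at 1 week on the log2 scale (edgeR, adjusted p = 0.000235, 7.08e-06 and 6.53e-06). Lmo4 also fell at 24 h.

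Foxo1 and Foxo3 both rose, and of the other FOXO genes Foxo4 was not called at any of the 3 times and Foxo6 fell at all 3. Foxo4 had 30.7 ± 8.07 CPM in NSPs and 29.7 ± 2.03 CPM at 24 h, and Foxo6 had 16 to 22 reads per library in NSPs and 0 to 3 in the libraries at 24 h, 72 h and 1 week. Foxo6 passed the filter through the NSP libraries alone, so that it had to differ. Foxo3 (ENSMUSG00000048756, chr10:42181841-42276755, minus strand) had the highest level per kilobase of exons of the 9 genes in every condition, with 19.4 CPM per kb in NSPs and 41.9 CPM per kb at 1 week. Its level was 112, 165 and 165 CPM in NSPs, 285, 261 and 291 CPM at 24 h, 294, 321 and 287 CPM at 72 h and 322, 329 and 301 CPM at 1 week. All 9 of these differentiated libraries were above the NSPs, by a log2 fold change of 0.92 ± 0.13 at 24 h (edgeR, adjusted p = 1.46e-05) and 1.11 ± 0.13 at 1 week (adjusted p = 9.72e-07). Foxo3 did not change further by the test between 24 h and 72 h (log2 0.11, interval of 2 SE from -0.15 to 0.37) or between 72 h and 1 week (0.08, -0.18 to 0.34).

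Foxo1 (ENSMUSG00000044167, chr3:52268336-52353221, plus strand) had a wide spread between replicates. It was at 9.39, 8.13 and 5.97 CPM in NSPs, 21.2, 15.2 and 31.5 CPM at 24 h, 33.5, 24.1 and 20.8 CPM at 72 h and 32.0, 57.8 and 22.8 CPM at 1 week. The differentiated libraries were all above the NSP libraries and overlapped among themselves. The log2 fold change from NSPs was 1.53 ± 0.38 at 24 h (edgeR, adjusted p = 0.00241), 1.74 ± 0.37 at 72 h (adjusted p = 0.000676) and 2.26 ± 0.38 at 1 week (adjusted p = 4.85e-05). Gm38034, an unclassified transcript on the same strand with no shared exon bases, had 17 to 190 counts, and the antisense gene Gm20402, with 674 shared exon bases, had at most 1.

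Known FOXO target genes were followed in a list of 21, of which 19 passed the filter. Compared with NSPs 7 rose and 3 fell at 24 h, 10 rose and 2 fell at 72 h, and 9 rose and 3 fell at 1 week, with list medians of 0.31, 0.51 and 0.40 (log2). The 10 called at 24 h, and 12 at each later time, of 19 stand beside 52.7%, 55.3% and 58.6% of all genes called, and at 24 h this is close to the share of all genes. Without NSP replicate 1 the 10 called at 24 h were 5 higher and 5 lower. At 72 h and at 1 week 9 were then higher and 5 lower. Of all 20620 genes of that fit 10219 were called at 24 h, 10641 at 72 h and 11551 at 1 week. Cited2, a transcriptional coregulator gene, rose by 1.25 at 24 h, 2.17 at 72 h and 1.89 at 1 week on the log2 scale, and Irs2, an adaptor of the insulin receptor, by 0.67, 1.53 and 1.89. Gabarapl1, an autophagy gene, rose by 0.66, 1.67 and 1.42. In the list of 14 genes of the PI3K, AKT and SGK pathway and of FOXO turnover, all passed the filter, and 4 rose and 5 fell at 24 h, 4 rose and 5 fell at 72 h, and 5 rose and 6 fell at 1 week, beside the same 52.7%, 55.3% and 58.6% of all genes called in either direction. Pik3r1, which encodes the p85 alpha subunit of PI3K, had 560 ± 14.1 CPM in NSPs and fell to 200.3 ± 4.22 CPM at 24 h, 157 ± 12.6 CPM at 72 h and 163 ± 11.3 CPM at 1 week. Skp2, encoding a ubiquitin ligase subunit that acts on FOXO1, fell by 1.59, 1.96 and 1.78 on the log2 scale, and Pik3cb rose by 1.34 at 72 h and 2.16 at 1 week. The RNA level gives neither the phosphorylation nor the location of the proteins.

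**Figure D3:**
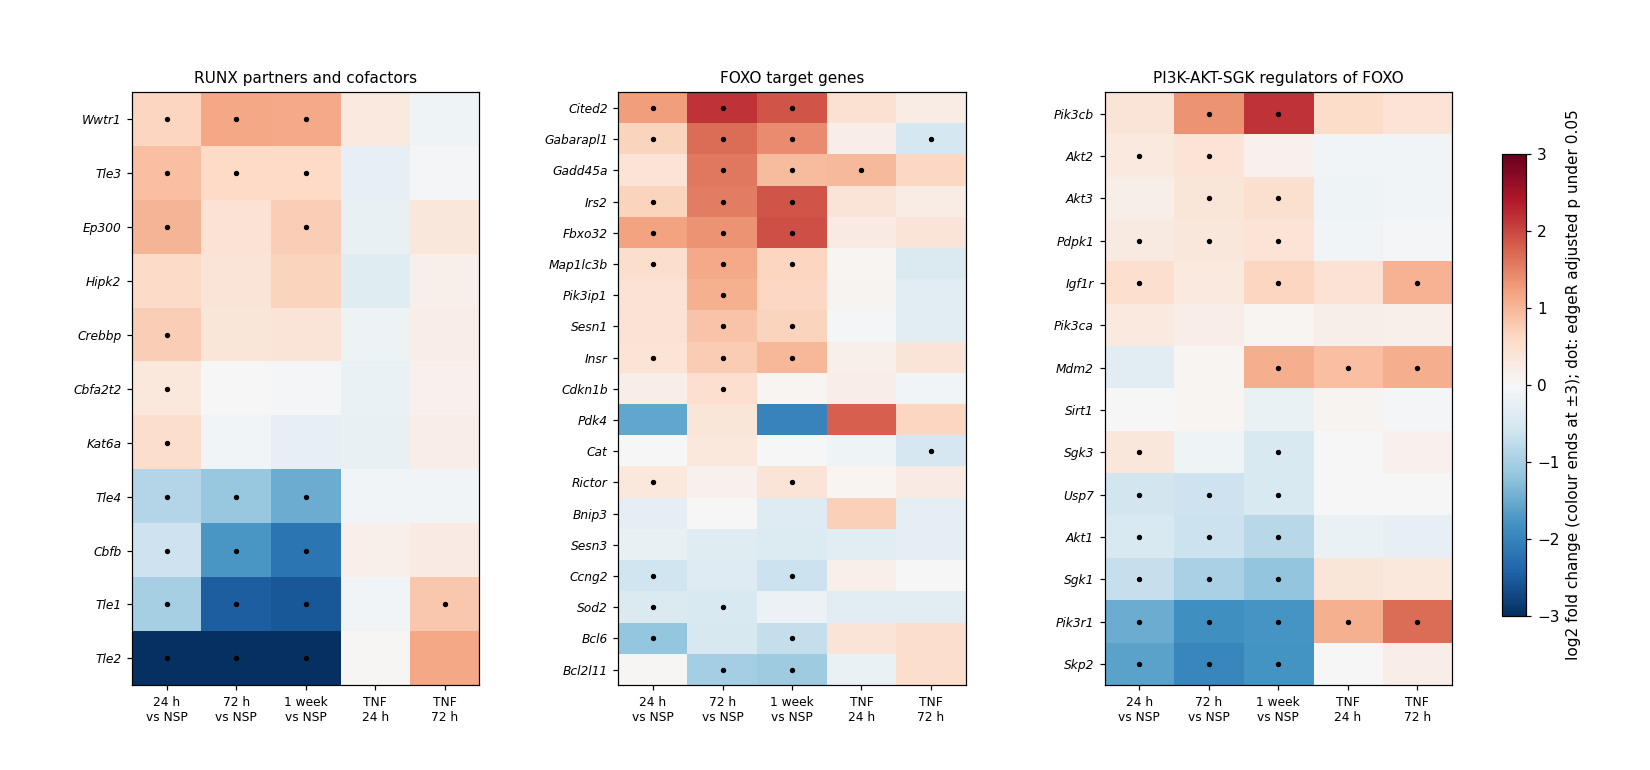
Log2 fold change (colour, ends at ±3) of the tested genes of 3 lists (rows) in 3 comparisons with NSPs and 2 of TNF with no TNF (columns), a dot marking edgeR's adjusted p under 0.05. Cbfb, Tle1, Tle2, Tle4, Skp2 and Pik3r1 are blue from NSPs onward, Cited2, Irs2 and Gabarapl1 red, and in the TNF columns Pik3r1 and Mdm2 are red at both times.

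Foxp1 (ENSMUSG00000030067, chr6:98925338-99522721, minus strand) rose in steps. Its level was 19.2, 24.6 and 23.9 CPM in NSPs, 44.7, 40.5 and 47.4 CPM at 24 h, 77.4, 76.8 and 62.9 CPM at 72 h and 54.2, 63.0 and 51.1 CPM at 1 week. NSPs, 24 h and 72 h did not overlap. The log2 fold change was 0.97 ± 0.17 from NSPs to 24 h (edgeR, adjusted p = 0.000102) and 0.71 ± 0.16 from 24 h to 72 h (adjusted p = 0.00322). From 72 h to 1 week the level did not differ by the test (log2 -0.37 ± 0.16, adjusted p = 0.214), where edgeR called 0 of the 8 genes and 6.63% of all genes (2.68% higher and 3.96% lower). The unadjusted p was under 0.05 for 2 of the 8, Runx1 and Foxp1, and the share of all genes under that unadjusted threshold was not counted. DESeq2 called 0 of the 8, against 1665 of 20064 genes. The summed ependymal markers moved with the level of Foxp1, at 8.31 to 12.2 CPM in NSPs, 12.3 to 13.5 CPM at 24 h, 50.9 to 55.8 CPM at 72 h and 31.6 to 36.8 CPM at 1 week, with Tmem212 at 0 in all 4 of these conditions and Pifo at 0 in NSPs. Of the 6 that passed the filter 4 were called higher than in NSPs at 24 h and 5 at 72 h and 1 week, while Hydin, a gene of motile cilia, was called lower at all 3 times, with mean levels of 6.35 CPM in NSPs, 0.10 CPM at 24 h, 1.74 CPM at 72 h and 0.74 CPM at 1 week, and so made up much of the NSP sum. Their part in the change of Foxp1 was not tested. Gm20696, on the same strand with 300 shared exon bases, had 39 to 215 counts, against 303 to 1252 counts of Foxp1 per library.

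Foxa1 (ENSMUSG00000035451, chr12:57540628-57546916, minus strand) rose from near the floor. Its level was 0.19, 0.27 and 0.06 CPM in NSPs, on 1 to 5 reads per library and 9 in all. It was 0.60, 0.78 and 0.81 CPM at 24 h, 1.74, 0.74 and 1.05 CPM at 72 h and 0.75, 1.32 and 0.49 CPM at 1 week, each library above the NSPs. The log2 fold change from NSPs was 2.03 ± 0.59 at 24 h (edgeR, adjusted p = 0.00776), 2.67 ± 0.55 at 72 h (adjusted p = 0.000454) and 2.26 ± 0.56 at 1 week (adjusted p = 0.00213). Its size rests on the 9 NSP reads. Foxa1 reached the level of the filter in 0 NSP libraries and passed it through differentiated libraries alone. The filter thus favoured a rise, and its calls against NSPs are given no weight.

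Foxc1 (ENSMUSG00000050295, chr13:31806633-31812476, plus strand) was the FOX gene of the 5 that was not called in the untreated time course, where it stood near the threshold at 72 h. Its level was 15.2, 12.5 and 12.2 CPM in NSPs, 13.5, 12.0 and 12.6 CPM at 24 h, 16.1, 18.4 and 18.8 CPM at 72 h and 17.5, 14.3 and 17.3 CPM at 1 week. The log2 difference from NSPs was -0.07 at 24 h (interval of 2 SE from -0.46 to 0.32), 0.42 at 72 h (0.04 to 0.80, edgeR, adjusted p = 0.0689) and 0.30 at 1 week (-0.08 to 0.68). The libraries at 72 h lay above those of NSPs and of 24 h, and the difference from NSPs at 72 h was called in the fit of only the groups compared (adjusted p = 0.0317), with at least 10 counts in every sample (0.0176) and without NSP replicate 1 (0.0447). The difference of 72 h from 24 h (log2 0.49 ± 0.19, edgeR, adjusted p = 0.0709) was called in the fit of only the groups compared (0.0156).

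Within a condition, levels of different genes can be compared per kilobase of exons. Foxo3 was first in all 6 conditions, at 19.4 to 41.9 CPM per kb, while Runx2 was between 0.25 and 1.13 CPM per kb. Among the 27 FOX genes past the filter, Foxo3 ranked first per kilobase at 24 h and second in the other 5 conditions, behind Foxk2 in NSPs (22.6 CPM per kb) and otherwise behind Foxj1, the regulator of motile cilia, with 103 CPM per kb for Foxj1 against 39.7 CPM per kb at 72 h. Of 39 other FOX genes 22 passed the filter, of which 5 rose and 8 fell at 24 h, 5 rose and 7 fell at 72 h, and 5 rose and 8 fell at 1 week compared with NSPs. These 13, 12 and 13 of 22 are close to the 52.7%, 55.3% and 58.6% of all genes called. Foxj1, with 27.8 ± 7.79 CPM in NSPs, reached 271 ± 49.6 CPM at 72 h, and Foxm1, which drives genes of mitosis, had 46.9 ± 17.1 CPM in NSPs and fell to 3.64 ± 0.68 CPM.

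**Figure D4:**
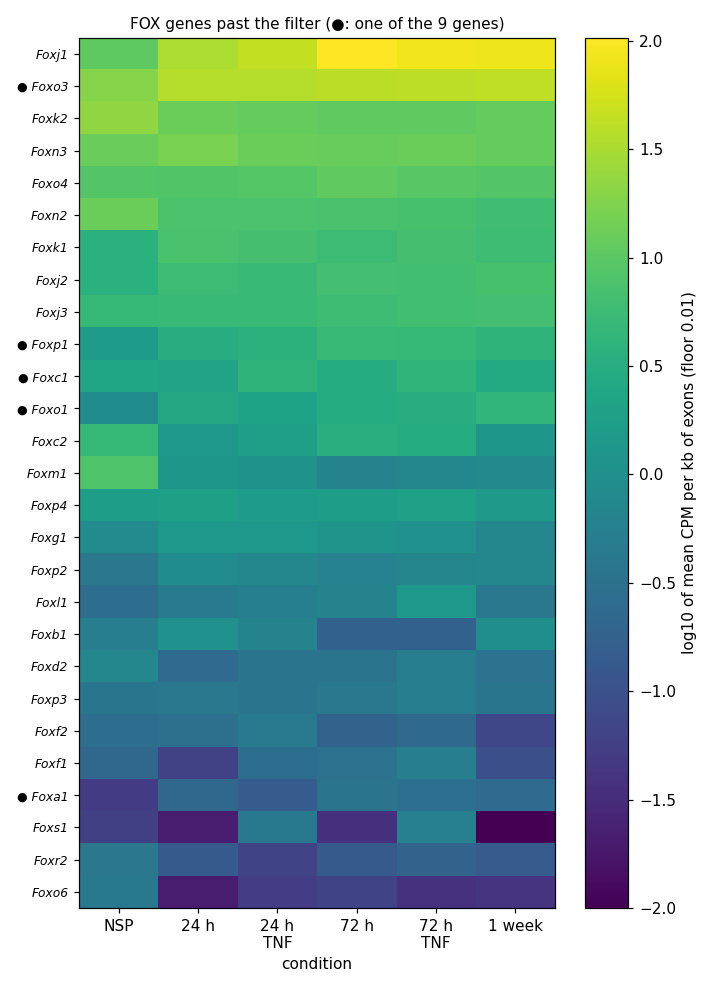
Mean level per kilobase of exons (colour, log10 of CPM per kb) of the FOX genes past the filter (rows) in the 6 conditions (columns), with black dots beside the 5 described here. Foxo3 is in the top rows throughout, Foxa1 near the bottom, Foxj1 brightens from NSPs to 72 h and Foxs1 is brightest with TNF.

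The second question was what TNF changed at a given time. At 24 h 1 of the 8 genes was called higher with TNF (Foxc1) and 1 lower (Gata2), where 3.5% of all genes were called, 2.18% higher and 1.32% lower. At 72 h 0 of the 8 were called, by edgeR, against 9.56% of all genes (4.35% higher and 5.21% lower). The unadjusted p was under 0.05 for 3 of them there, Runx1, Foxc1 and Gata2. The share of all genes under that unadjusted threshold was not counted. DESeq2 also called 0 of the 8, against 2297 of 20064 genes. The median log2 difference of the 8 genes was 0.09 at 24 h and 0.07 at 72 h, beside -0.01 for all genes at both times.

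Foxc1 was at 17.3, 28.5 and 24.6 CPM at 24 h with TNF, against 13.5, 12.0 and 12.6 CPM without. All 3 TNF libraries lay above the untreated ones. The log2 difference was 0.89 ± 0.19, or 1.85-fold (edgeR, adjusted p = 0.0114), and 1.05 without the first TNF replicate, which stood apart (adjusted p = 0.00268). The call was lost without 24 h replicate 2 (adjusted p = 0.0647), 24 h replicate 3 (0.0558) or 24 h TNF replicate 2 (0.0629). At 72 h Foxc1 was at 18.7, 26.2 and 30.0 CPM with TNF against 16.1, 18.4 and 18.8 CPM without, groups that overlapped, with a log2 difference of 0.49 ± 0.19 (adjusted p = 0.113), which was called without 72 h TNF replicate 1 (log2 0.66, adjusted p = 0.0282). Against NSPs, Foxc1 was called higher in both TNF conditions (log2 0.82 ± 0.19 and 0.91 ± 0.19, edgeR, adjusted p = 0.00148 and 0.000448).

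Gata2 was at 0.76, 1.57 and 2.12 CPM at 24 h with TNF, against 3.70, 3.24 and 5.05 CPM without. The groups did not overlap, and the log2 difference was -1.42 ± 0.35 (edgeR, adjusted p = 0.029). Without the first TNF replicate it was -1.11 and not called (adjusted p = 0.128). The call held in the fit without 24 h TNF replicate 3 (adjusted p = 0.0172) and was lost in the 5 other fits that left out 1 library of either group (adjusted p from 0.0523 to 0.152) and in the fit of only the groups compared (0.0665). At 72 h Gata2 was at 0.39, 0.58 and 0.81 CPM with TNF against 1.29, 1.10 and 1.05 CPM without. Here too the groups did not overlap, but the log2 difference of -0.94 ± 0.43 was not called (adjusted p = 0.178). Within the TNF cultures Gata2 was lower at 72 h than at 24 h (log2 -1.32 ± 0.41, adjusted p = 0.0416), a call that was lost in 5 of the 6 fits that left out 1 library of either group (adjusted p from 0.0505 to 0.245), among them that without 72 h TNF replicate 1 (log2 -1.06, adjusted p = 0.151), and held without 24 h TNF replicate 1 (0.00904).

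Runx1 stood just outside the threshold. It was at 3.53, 2.61 and 3.66 CPM at 24 h with TNF, on 35 to 62 reads per library, against 1.36, 1.17 and 1.22 CPM without. These 3 libraries had the highest Runx1 levels of the series, and the groups did not overlap. The log2 difference was 1.39 ± 0.39 (edgeR, adjusted p = 0.0587). It was called by DESeq2 (adjusted p = 0.0367), without the filter on low counts (0.00859) and in the fit of only the groups compared (0.0202), and leaving out 1 library at a time gave adjusted p from 0.0777 to 0.213. At 72 h it was at 2.25, 0.81 and 1.25 CPM with TNF against 1.06, 0.55 and 0.28 CPM without, which overlapped (log2 1.25 ± 0.45, adjusted p = 0.0886). That difference was called without 72 h replicate 1 (log2 1.80, adjusted p = 0.0236) or 72 h TNF replicate 2 (1.53, adjusted p = 0.0473), and it was smaller without 72 h TNF replicate 1, which stood apart (0.77, adjusted p = 0.399), or 72 h replicate 3 (0.86, adjusted p = 0.378). Against NSPs Runx1 was called higher at 24 h with TNF (log2 2.23 ± 0.41, adjusted p = 0.000192) and at 72 h with TNF (1.05 ± 0.43, adjusted p = 0.0414). The latter call was lost without 72 h TNF replicate 1, where the log2 difference was 0.60 (adjusted p = 0.28), and without NSP replicate 1 (0.78, adjusted p = 0.148), NSP replicate 3 (0.0891) or 72 h TNF replicate 3 (0.051), with the replicate block (0.0602) and in the fit of only the groups compared (0.086). Within the TNF cultures 0 of the 8 genes rose and 2 fell from 24 h to 72 h, Runx1 (log2 -1.18 ± 0.38, adjusted p = 0.0458) and Gata2, against 13.3% of all genes called, 5.38% higher and 7.93% lower. Foxo1 was called higher there without the filter on low counts (log2 0.63, adjusted p = 0.0169) and not with it (0.60 ± 0.36, adjusted p = 0.301). Both of the calls of Runx1 and Gata2 were lost in the fit of only the groups compared (adjusted p = 0.11 for Runx1 and 0.135 for Gata2). The Runx1 call was also lost in 5 of the 6 fits without 1 library, with log2 -1.08 and adjusted p = 0.0871 without 24 h TNF replicate 1 and up to 0.178 in the others, and held without 72 h TNF replicate 1 (adjusted p = 0.0143).

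Cell type markers moved with TNF beside these genes. The summed endothelial markers were 10.1 to 11.3 CPM with TNF against 6.58 to 6.88 CPM at 24 h, and 11.4 to 16.3 CPM against 7.34 to 9.08 CPM at 72 h, with Cdh5 at 0 in all 4 of these groups. Of this list Vwf was called higher with TNF, by 1.95 ± 0.24 at 24 h and 2.81 ± 0.24 at 72 h on the log2 scale (edgeR, adjusted p = 7.3e-05 and 5.96e-07), while Kdr was called lower at 72 h, by -2.27 ± 0.46 (adjusted p = 0.00318). Pericyte markers summed to 94.4 to 131 CPM with TNF against 113 to 166 CPM at 24 h, and to 58.7 to 140 CPM against 35.3 to 55.4 CPM at 72 h, where Cspg4 was called higher (log2 2.02, edgeR, adjusted p = 0.00326). Of its levels of 17.6, 22.3 and 74.5 CPM with TNF at 72 h the highest was that of the first replicate, and without that library the log2 difference was 1.08 (adjusted p = 0.0254). Of the 8 pericyte markers 3 passed the filter, and Pdgfrb, Kcnj8, Abcc9, Vtn and Anpep did not. Of the 8 endothelial markers 4 passed it, and of the 8 meningeal fibroblast markers 3. These sums therefore rest on few genes and do not identify a cell type. Markers of meningeal fibroblasts, cells in which Foxc1 is known to act, summed to 13.1 to 21.3 CPM with TNF against 17.1 to 19.1 CPM at 24 h, with Lum and Twist1 at 0 in both, and to 7.95 to 10.5 CPM against 12.6 to 15.1 CPM at 72 h. Of these Col3a1 was called higher at 24 h (log2 2.12, edgeR, adjusted p = 0.00661) and Tbx18 lower at 72 h (log2 -0.68, adjusted p = 0.0123), which was lost without 72 h TNF replicate 1 (-0.57, adjusted p = 0.0628). Col3a1 reached the level of the filter in no NSP, 24 h or 72 h library without TNF. The part of these cells in the changes of Runx1, Gata2 and Foxc1 was not tested.

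**Figure D5:**
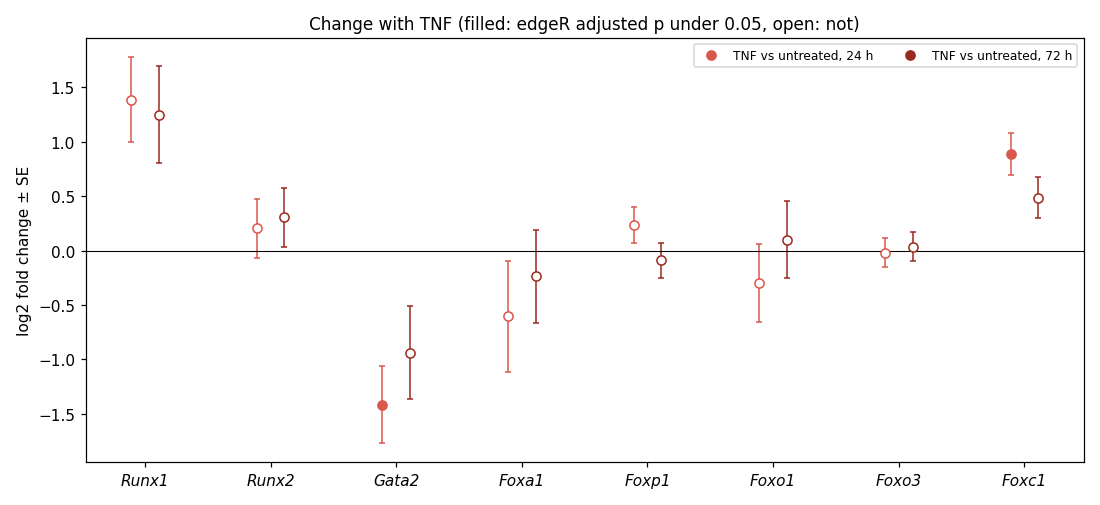
Log2 fold change with TNF against no TNF (vertical axis, ± SE) of the 8 genes tested at 24 h and 72 h, filled where edgeR's adjusted p was under 0.05. Foxc1 and Gata2 at 24 h are the filled points, Runx1 has the highest points at both times without being filled, and Runx2, Foxp1, Foxo1 and Foxo3 lie within 0.4 of 0.

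The other 5 tested genes were not called with TNF at either time. For Foxo3 the log2 difference was -0.02 at 24 h (interval of 2 SE from -0.28 to 0.24) and 0.04 at 72 h (-0.22 to 0.30), the narrowest intervals of the 8. Foxo3 was at 282, 259 and 286 CPM at 24 h with TNF and 292, 300.4 and 333 CPM at 72 h with TNF. Foxo1 was at 23.2, 15.1 and 16.6 CPM and 45.0, 19.9 and 18.8 CPM with TNF at these times, the first replicate being highest at both, and its interval was wider, from -1.02 to 0.43 at 24 h and from -0.61 to 0.81 at 72 h. Foxp1 was at 68.9, 43.3 and 43.5 CPM at 24 h with TNF, the high value being that of the first replicate, which stood apart, and at 63.6, 68.6 and 71.8 CPM at 72 h with TNF. Without that library Foxp1 was higher at 72 h than at 24 h within the TNF cultures (log2 0.69, edgeR, adjusted p = 0.00305), and with it it was not called (0.39 ± 0.16, adjusted p = 0.126). Foxa1 was at 0.44, 0.75 and 0.29 CPM and 0.73, 1.45 and 0.75 CPM with TNF, and its intervals reached from -1.62 to 0.42 at 24 h and from -1.09 to 0.62 at 72 h. No gene of the 8 passed the test of a different TNF effect at 72 h than at 24 h by edgeR (0.458% of all genes did, 0.135% higher and 0.324% lower). None had an unadjusted p under 0.05 there, DESeq2 also called 0 (against 244 of 16562 genes), and the difference of effects was -0.40 ± 0.27 (log2) for Foxc1.

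Over the 6 lists of partners, targets and relatives, 5 of the 75 genes tested were called with TNF at 24 h (6.67%, against 3.5% of all genes) and 8 at 72 h (10.7%, against 9.56% of all genes). Without the first TNF replicate of the time 3 were called at 24 h and 6 at 72 h. The calls over all genes also fell in these fits, from 703 to 474 at 24 h and from 1919 to 1371 at 72 h. Of the 11 tested RUNX partners 0 were called at 24 h and 1 at 72 h, where Tle1 was higher by 0.82 on the log2 scale (edgeR, adjusted p = 0.0218), a call lost without 72 h TNF replicate 1 (0.47, adjusted p = 0.179). Of the 3 bone genes, Spp1 was higher with TNF at 24 h, at 3.91 ± 2.29 CPM against 0.40 ± 0.14 CPM (log2 3.22 ± 0.50, adjusted p = 0.000807). Of the 6 GATA cofactor genes 0 were called at 24 h, and at 72 h Ldb1, which bridges GATA complexes, fell by 0.43 on the log2 scale (adjusted p = 0.0483), a call also lost without 72 h TNF replicate 1 (adjusted p = 0.197). Of the 19 FOXO targets, Gadd45a, a growth arrest gene, rose at 24 h by 0.98 (adjusted p = 0.0412, and 0.151 without 24 h TNF replicate 1), and Cat, encoding catalase, and Gabarapl1 fell at 72 h by 0.49 and 0.52 (adjusted p = 0.0435 and 0.0463), of which the call of Gabarapl1 was lost without 72 h TNF replicate 1 (0.067). The list of FOXO regulators had 2 of 14 genes higher at 24 h and 3 of 14 at 72 h, and none lower. Pik3r1 was at 417 ± 79.0 CPM with TNF against 200.3 ± 4.22 CPM at 24 h and at 498 ± 23.9 CPM against 157 ± 12.6 CPM at 72 h (edgeR, adjusted p = 4.31e-05 and 1.41e-07), beside 560 ± 14.1 CPM in NSPs. Mdm2, a ubiquitin ligase gene, rose by 0.90 and 1.10, and Igf1r rose at 72 h by 1.04, while Foxo1 and Foxo3 themselves were not called. Among the 22 other FOX genes tested, Foxs1 is included in the calls at both times, but it passed the filter on low counts through 3 TNF libraries alone, so that it had to differ and its calls are given no weight. It had 0 to 1 reads per library without TNF at these times, and 5 to 13 reads at 24 h and 8 to 19 reads at 72 h with TNF. Its call at 24 h was lost without 24 h TNF replicate 1 (edgeR, adjusted p = 0.0963).

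Each gene's pattern over the 18 libraries was also compared with those of all genes tested, by Pearson's r of log2 CPM, as a description over libraries that share the 6 conditions. For Foxp1 the 3 highest were Cfap69 (r = 0.981), Dnah5 (0.979) and Wdr49 (0.976). For Gata2 they were Zfp423 (r = 0.981), Lncppara (0.954) and Cxxc5 (0.943), and for Runx1 Rrad (r = 0.925), Prr5l (0.923) and Col6a1 (0.917). Runx2 was followed by Irf2 (r = 0.975), Gm43259 (0.972) and Utrn (0.968), Foxo3 by Arhgap23 (0.975), Rbms1 (0.972) and Firre (0.971), and Foxo1 by Mob1b (0.954), Tcf7l2 (0.947) and Cobll1 (0.946). The lowest first values were those of Foxa1, with 1700007P06Rik (r = 0.916), 2310030G06Rik (0.897) and Efcab14 (0.886), and of Foxc1, with Rapgef4 (0.876), Ctps (0.857) and the TNF response gene Cxcl10 (0.856).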

How the data were processed

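Total RNA was depleted of ribosomal RNA by the authors, made into stranded libraries and sequenced from both ends. The study's methods give RNA quality numbers (RQN) from 3.4 to 10, so that RNA quality varied, and no value per library was available. Per the labels, reads were checked with FastQC, trimmed with Trim Galore, aligned with STAR (mm10), handled with SAMtools and counted with featureCounts. The deposited values are raw counts per gene. Tool versions, annotation, strand setting and treatment of multi-mapping reads are not given in the sources used here. The authors tested with DESeq2. Strand setting matters for the overlapping genes named in the report.

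Of 54838 genes, 54809 had their identifier in GENCODE M21 (GRCm38), the source of positions and exon lengths. Counts were normalized by TMM and tested with edgeR 4.0.16 (quasi-likelihood, limma 3.58.1, R 4.3.3) over all 18 libraries with 1 mean per condition, after edgeR's filter by condition (20067 genes), with Benjamini-Hochberg adjustment over these genes. The biological coefficient of variation was 0.18. SE is the log2 fold change divided by the root of F. Log2 CPM for likeness used a prior count of 2. Intervals and floors cover counting or replicate error only, since reads carry no molecular identifiers. Replicate libraries differed by more than sampling noise in all 18 pairs (chi-square between 4.08 and 62.7 for each degree of freedom). In simulated counts for 24 h with TNF against 24 h (19443 genes), edgeR found 62.2% of genes changed by a log2 fold of 1 and 88.8% of those changed by 2, with 12 false calls. The simulation gave every gene the same coefficient of variation of 0.18 and had no replicate that stood apart. Its shares therefore do not carry over to genes with a wider spread. Tables and figures used Python 3.11.15, numpy 2.4.6, pandas 2.3.3 and matplotlib 3.10.9, and alternatives DESeq2 1.42.0.

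The genes and lists were chosen with earlier results of these data known. Levels are given for all 9 genes, the 8 that passed the filter were tested in every comparison, and values are printed where a gene was called or stood out. One gene of the list of FOXO regulators is not reported here and was left out of its counts. Lists are given by counts, with at most 4 genes named among those with the smallest adjusted p in a comparison, and genes followed across comparisons beyond that were named after their values were seen. Replicate numbers paired the samples only between the TNF conditions at 72 h and 24 h (correlation of same-numbered deviations from 0.255 to 0.291), where the replicate block changed no call. Alternatives were DESeq2, RLE normalization, other filters, the block, the block with the third untreated 72 h sample unpaired, only the groups compared, and each library left out, the last for list and marker genes only with the 3 libraries that stood apart. The column of that sample carries replicate number 4 while its title says 3, and it was matched by its library index and condition.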

Additional observations from a re-analysis of the deposited data

How the results depend on the processing

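Of 1243 recomputed values of the 8 tested genes, 1189 kept their side of the threshold, 37 lost and 17 gained a call. Of the 1189, 1156 also kept their direction, and the 33 that changed sign were not called in either fit. Of the 54 mean levels, 0 moved by over 1 SD with RLE normalization. The 2 calls between 72 h and 24 h with TNF became 0 with at least 5 counts in total, 0 with at least 10 counts in every sample and 0 in the fit of only the groups compared. With at least 10 counts in every sample, 72 h against 24 h and TNF against no TNF at 24 h each gave 1 call, since Runx1, Gata2 and Foxa1 are not tested there. Leaving out 1 library at a time gave 0 to 2 calls for TNF at 24 h, 0 to 2 for 72 h against 24 h with TNF, and 0 to 1 for TNF at 72 h. Replicate numbers otherwise only name samples. The replicate block kept the 2 calls for TNF at 24 h, lost Runx1 at 72 h with TNF against NSPs (adjusted p = 0.0602, edgeR) and gained Foxa1 at 24 h with TNF against NSPs (adjusted p = 0.0466), which was also called without NSP replicate 2 (0.0465) or 24 h TNF replicate 3 (0.0407). With the replicate block and the third untreated 72 h sample unpaired, no call of the 8 genes changed, and Runx1 with TNF at 72 h, not called in either fit, went from log2 1.25 to 0.86 (adjusted p = 0.4). The Gata2 call at 24 h with TNF against NSPs was lost in the fit of only those groups (adjusted p = 0.0632) and without NSP replicate 1 (0.0703), NSP replicate 3 (0.0651) or 24 h TNF replicate 3 (0.125), and the cause was not tested. For the list and marker genes the fits without the first replicate of NSPs or of either TNF group were chosen after seeing the data. There the uncalled difference of Cspg4 between 72 h and 24 h with TNF (log2 0.01) became a called -0.90 (adjusted p = 0.0445) without 72 h TNF replicate 1, and the cause was not tested. Over all genes DESeq2 called 244 for the difference of TNF effects, against 92 with edgeR. Depth limits Runx1, Gata2 and Foxa1 most.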

Other observations

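The ratio of Runx1 to Gata2 reads within a library, which needs no scaling between libraries, was chosen after the values of both genes were seen. Runx1 had 1.00, 1.00 and 1.33 reads per Gata2 read in NSPs. It had 0.37, 0.36 and 0.24 at 24 h, and 4.67, 1.67 and 1.72 at 24 h with TNF. At 72 h the ratio was 0.82, 0.50 and 0.26 without TNF and 5.71, 1.40 and 1.54 with TNF, and at 1 week 0.25, 0.30 and 0.22. The TNF libraries had more Runx1 than Gata2 reads in 6 of 6 cases, and the untreated differentiated libraries fewer in 9 of 9. The first replicate gave the highest ratio in both TNF groups.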
